A study of Mus musculus with 30 samples.

Results

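The 30 genes described here act at successive steps of the cell division cycle and were taken by gene symbol from the 41388 genes of the deposited tables. All 30 symbols were found. By role they fall into 3 G1 cyclins, 7 genes of DNA replication, 8 of mitotic entry, 6 of the spindle checkpoint, anaphase and cytokinesis, and 6 of chromosome and spindle structure. RNA was sequenced as 20 poly(A)-selected libraries, each a pool of RNA from 3 to 4 mice. Plated hepatocytes of 12-week-old mice, freed by collagenase and kept on collagen overnight, gave 3 pools labelled A1cf_Tg/+ (called Tg-labelled below) and 3 wild-type C57BL/6J pools. Whole livers of 12-month-old mice gave 4 Tg-labelled pools with 4 wild-type C57BL/6J pools in one study, and 3 pools labelled A1cf_-/- (KO) with 3 wild-type C57BL/6NJ pools in another. Tg-labelled hepatocytes of 12-week-old mice also gave 10 CLIP-seq libraries, in which RNA crosslinked to a precipitated protein was sequenced. A1CF binds RNA and helps the deaminase APOBEC1 to edit Apob mRNA. The labels do not give the promoter or species of the transgene, the sex of the mice, or whether pools share mice, so p-values measure the spread between these pools.

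Most hepatocytes of an adult liver rest outside the cycle and re-enter it after tissue loss or injury. On entry, D cyclins and then E cyclins with their kinases release E2F factors, which switch on the genes that license and copy DNA. Later, the factors B-MYB and FOXM1 act with the MuvB complex on promoters that hold CCAAT boxes and a cell cycle homology region (CHR), and switch on the genes of G2 and mitosis, while in resting cells DREAM, the MuvB complex with p130 and E2F4, keeps both sets of promoters silent.

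Total counts ran from 26144213 to 37211328 in Tg-labelled hepatocytes and from 33291216 to 36411146 in wild-type hepatocytes. They ran from 18308368 to 20711360 in Tg-labelled livers, 17044839 to 25315849 in their C57BL/6J controls, 28753525 to 30600063 in KO livers and 25888485 to 35365817 in C57BL/6NJ livers. A1cf itself was measured at 167, 155, 144 and 161 CPM in Tg-labelled livers and at 290, 219, 240 and 235 CPM in C57BL/6J livers. CPM are counts per 1e6 reads assigned to genes, scaled by TMM (trimmed mean of M-values) over the 20 libraries. A1cf counts were therefore lower in the libraries labelled Tg (log2 fold change -0.65 ± 0.11 (SE), edgeR adjusted p = 0.0369). The labels do not say whether reads of the transgene are counted under this gene, so these counts cannot check the label. In hepatocytes it was at 8.27, 9.87 and 9.39 CPM in Tg-labelled pools and 5.91, 8.67 and 9.30 CPM in wild-type pools (0.02 ± 0.24, adjusted p = 0.962; edgeR quasi-likelihood tests with Benjamini-Hochberg adjustment, as throughout). In KO livers A1cf was at 26.2, 21.1 and 31.7 CPM, against 252, 219 and 206 CPM in C57BL/6NJ livers (-3.12 ± 0.15, adjusted p = 1.59e-05). Every direction given below for the Tg-labelled pools is a direction for libraries carrying that label. Hepatocyte markers were detected in every group, with sums over 8 genes of 31660 to 119200 CPM. Some libraries stood apart. Tg-labelled hepatocyte pools 1 and 2 and wild-type hepatocyte pool 1 had 1.40%, 1.39% and 2.01% of counts from mitochondrial genes, against 3.14% to 3.71% in the other 3. Markers of skeletal muscle summed to 2295 CPM in C57BL/6J liver pool 2 and to 23.5 to 139 CPM in KO livers, against 0.574 to 3.44 CPM in the other liver pools.

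The promoters of 6 of the genes are printed first, because they show the letters through which early and late cycle genes are known to be switched on, and because all 6 are described below for Tg-labelled livers. The letters searched were the CHR letters TTTGAA and TTCGAA, the CCAAT box CCAAT, and the E2F letters TTTCCCGC, TTTGGCGC and TTTCGCGC, each on both strands. Each line holds the 200 bases before the annotated start of the gene, 5′ to 3′ on the gene's strand, from RefSeq (GRCm38.p6), with every match in capitals; a CCAAT box on the other strand reads ATTGG. The windows are chr6:88898781-88898980 (minus strand) for Mcm2, chr1:128359706-128359905 (minus) for Mcm6, chr10:69352913-69353112 (minus) for Cdk1, chr7:122159235-122159434 (plus) for Plk1, chr2:118598011-118598210 (plus) for Bub1b and chr11:99024190-99024389 (minus) for Top2a.
Mcm2: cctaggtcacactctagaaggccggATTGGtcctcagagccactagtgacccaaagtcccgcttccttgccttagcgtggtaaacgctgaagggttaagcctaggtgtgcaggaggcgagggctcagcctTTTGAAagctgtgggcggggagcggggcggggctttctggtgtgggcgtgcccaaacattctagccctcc
Mcm6: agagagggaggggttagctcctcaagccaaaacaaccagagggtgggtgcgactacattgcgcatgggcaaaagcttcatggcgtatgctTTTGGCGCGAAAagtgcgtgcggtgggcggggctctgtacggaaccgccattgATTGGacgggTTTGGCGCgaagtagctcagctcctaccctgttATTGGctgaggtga
Cdk1: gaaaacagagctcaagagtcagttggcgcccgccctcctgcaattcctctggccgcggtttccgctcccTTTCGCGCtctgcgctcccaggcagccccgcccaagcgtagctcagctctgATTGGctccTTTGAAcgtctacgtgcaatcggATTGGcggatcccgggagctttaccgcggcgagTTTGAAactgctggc
Plk1: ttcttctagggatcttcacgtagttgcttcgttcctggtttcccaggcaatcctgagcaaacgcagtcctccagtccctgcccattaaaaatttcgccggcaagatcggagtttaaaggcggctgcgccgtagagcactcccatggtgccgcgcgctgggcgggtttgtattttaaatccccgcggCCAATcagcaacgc
Bub1b: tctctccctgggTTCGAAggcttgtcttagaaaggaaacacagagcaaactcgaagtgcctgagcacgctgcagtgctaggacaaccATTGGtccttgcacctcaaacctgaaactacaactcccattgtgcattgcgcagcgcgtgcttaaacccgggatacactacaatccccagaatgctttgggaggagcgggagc
Top2a: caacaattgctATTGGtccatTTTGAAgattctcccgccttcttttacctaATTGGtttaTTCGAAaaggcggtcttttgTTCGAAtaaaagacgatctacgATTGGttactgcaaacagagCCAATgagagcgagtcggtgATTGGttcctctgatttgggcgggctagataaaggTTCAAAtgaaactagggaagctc

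Mcm6 alone of the 6 held 3 E2F matches, at 110 to 103, 106 to 99 and 47 to 40 bases before the start, of which the first 2 overlap. Mcm2 held 1 CHR match, at 70 to 65 bases before the start, and 1 CCAAT box. The late genes differed more among themselves: Top2a held 4 CHR matches and 5 CCAAT boxes, Cdk1 2 of each with 1 E2F match, Bub1b 1 CHR match and 1 CCAAT box, and Plk1 a single CCAAT box at 14 to 10 bases before the start. Of the 30 genes, 22 matched an entry of the promoter table. In the 250 bases before the start, a CCAAT box was found in 18 of these 22 (81.8%), against 37.5% of 27025 genes of the table. A CHR match was found in 8 (36.4%, against 19.6%) and an E2F match in 3 (13.6%, against 1.78%). These are matches of letters, given as a description.

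Levels differed widely between the genes and between cells and tissue. Per kilobase of the deposited gene length, the highest mean over the 20 libraries in each role belonged to Mcm6 (14.9 CPM per kb, a subunit of the MCM helicase that unwinds DNA), Ccnd1 (7.48, cyclin D1), Aurka (1.70, the centrosomal Aurora A kinase), Cdc20 (0.924, the activator of the anaphase-promoting complex) and Mki67 (0.618, the Ki-67 proliferation antigen). The lowest of all was Ccnb1, cyclin B1, at 0.0709 CPM per kb. In plated hepatocytes Mcm6 led, with group means of 51.1 CPM per kb in Tg-labelled and 41.5 in wild-type pools. In livers of the Tg study Ccnd1 led, with 13.1 CPM per kb in Tg-labelled and 12.6 in C57BL/6J pools. In livers of the KO study Pcna, the sliding clamp of DNA polymerases, led with 9.97 CPM per kb in KO and 8.80 in C57BL/6NJ pools. Pcna at 24.2, 23.8 and 23.8 CPM in KO livers and 23.7, 21.8 and 17.9 CPM in C57BL/6NJ livers lay above all 8 pools of the Tg study (7.09 to 12.8 CPM), and Ccnd1 lay at 11.2 to 21.9 CPM in the KO study against 17.9 to 109 CPM in the Tg study. Substrain and sequencing study differ together between these livers and cannot be told apart.

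**Figure D1:**
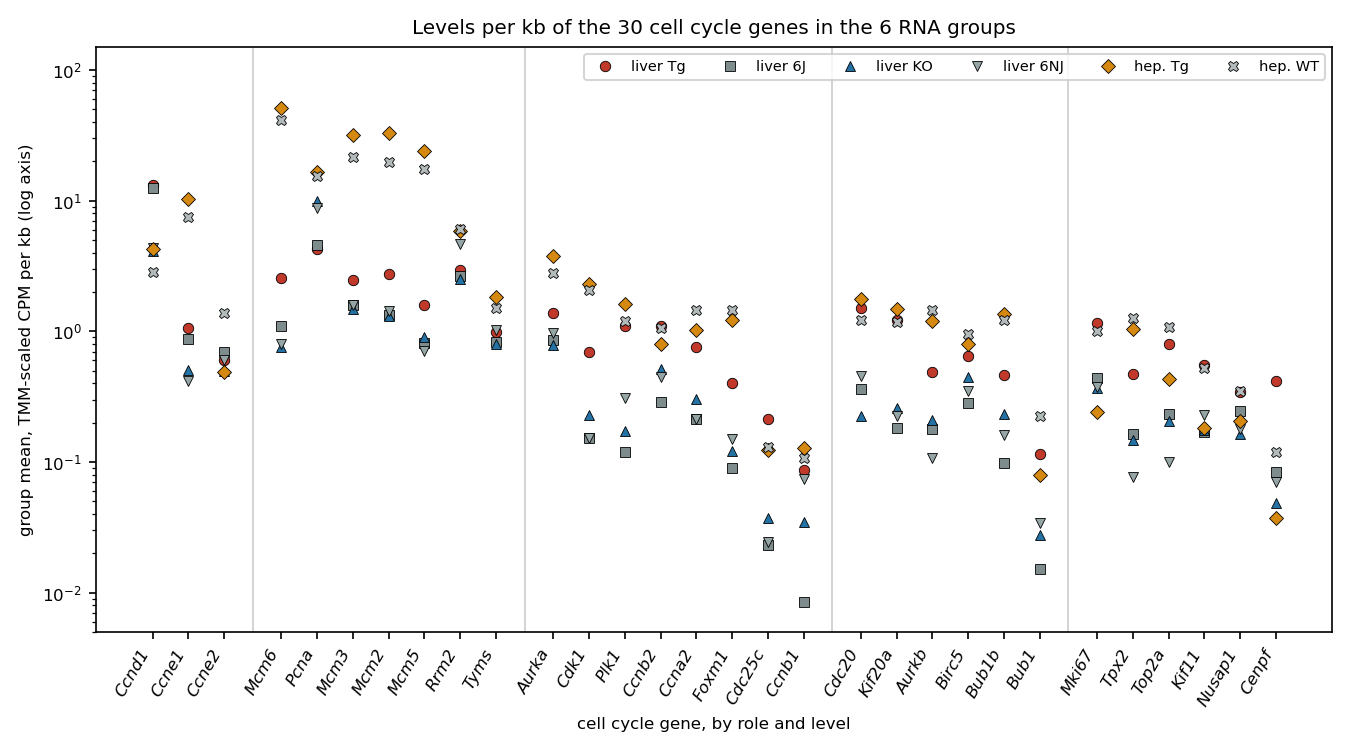
Group means of the 30 cell cycle genes in TMM-scaled CPM per kilobase (log axis), ordered by role and, within each role, by level; each symbol is one of the 6 groups. The MCM genes stand highest in plated hepatocytes (Mcm6 at 51.1 and 41.5 CPM per kb), while Ccnd1 stands highest in livers of the Tg study (13.1 and 12.6 CPM per kb).

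The first comparison asks what differed between livers labelled A1cf-transgenic and their wild-type controls. In Tg-labelled livers most cell cycle genes were measured at higher levels: 25 of the 27 tested had an estimate above 0, and in 13 all 4 Tg-labelled pools lay above all 4 C57BL/6J pools. Over all genes tested, 49.4% had an estimate above 0 and 6.48% were higher without overlap. Mcm2 and Mcm6 rose past adjusted p of 0.05 and the other 25 did not pass the test, against 0.971% of all genes called higher. An unadjusted p below 0.05 was found for 19 of the 27, against 2861 of all 14110 genes. DESeq2 called 16, all higher, against 763 of all 14110 genes called higher. The median log2 fold change of the 27 was 1.40, and that of all genes tested -0.0048. The size differed between pools. In pools 3 and 4 the median ratio to the control mean was 2.01 and 1.69 on the log2 scale, in pools 1 and 2 it was 0.57 and 0.63, and in the control pools it ran from -0.22 to 0.31. Because these are bulk tissues, more dividing cells and more of these RNAs per cell cannot be told apart.

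**Figure D2:**
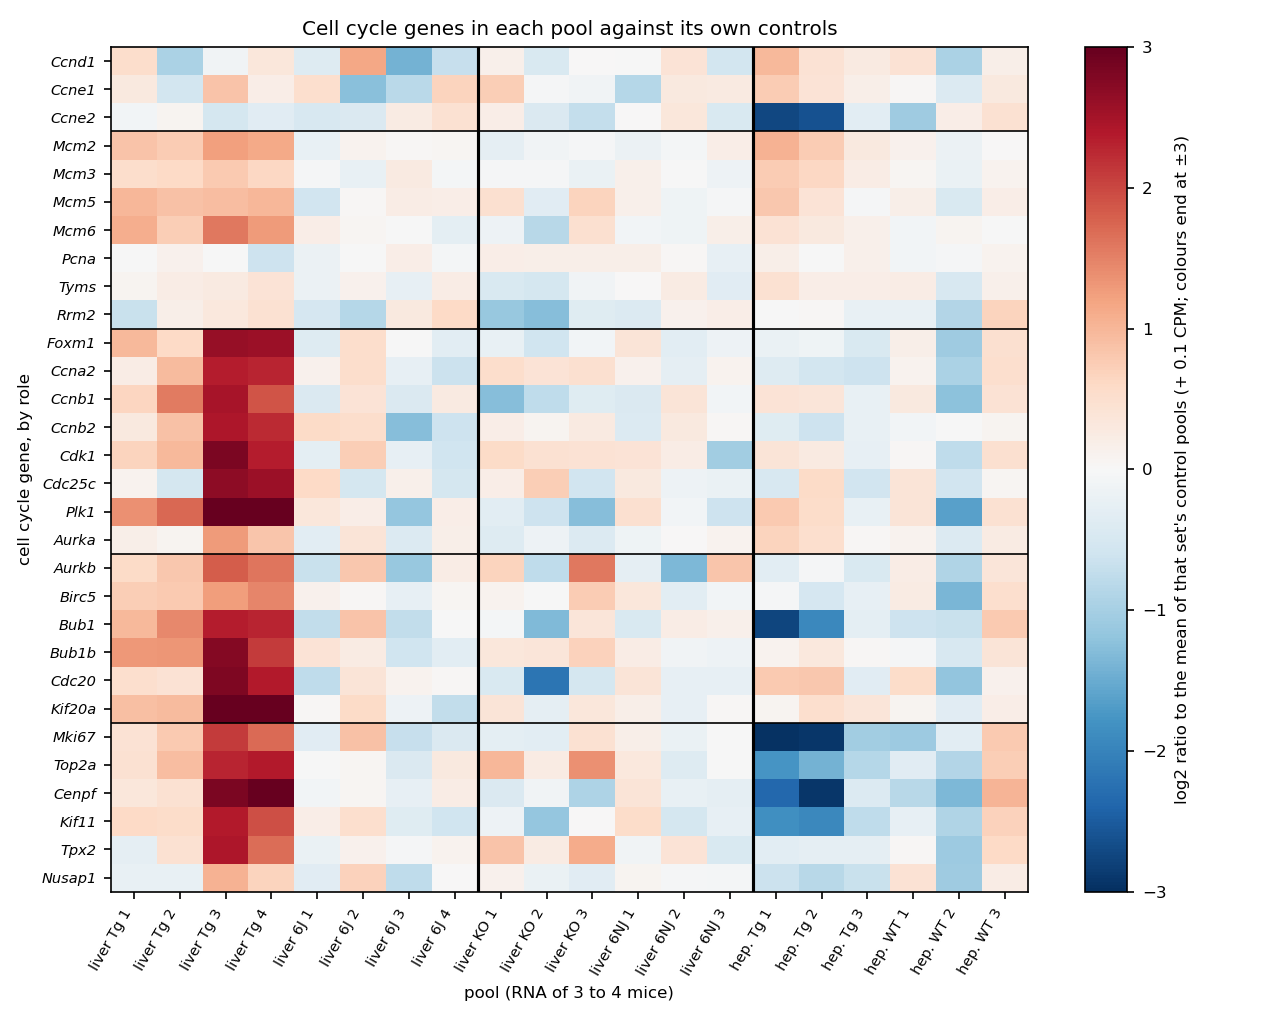
Log2 ratio of each gene in each pool to the mean of the control pools of the same set, after adding 0.1 CPM to both (colours end at ±3), with genes in rows by role and Tg-labelled or KO pools left of their controls. Tg-labelled liver pools 3 and 4 are high in nearly every late gene (medians over the genes 2.01 and 1.69), pools 1 and 2 less so (0.57 and 0.63).

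The replication genes were the most even across the Tg-labelled liver pools. Mcm2 and Mcm6 encode subunits of the helicase loaded at replication origins. Mcm2 was at 8.28, 7.65, 10.7 and 10.1 CPM in Tg-labelled livers, against 3.86, 4.87, 4.60 and 4.68 CPM in C57BL/6J livers. Every Tg-labelled pool stood above every control pool, with means of 9.19 ± 1.46 and 4.50 ± 0.44 CPM (SD, n = 4 each) and a log2 fold change of 1.03 ± 0.16 (edgeR adjusted p = 0.0294). Mcm6 was at 10.9, 8.60, 15.4 and 12.5 CPM in Tg-labelled livers and at 5.88, 5.35, 5.03 and 4.17 CPM in C57BL/6J livers, again without overlap (1.22 ± 0.20, edgeR adjusted p = 0.0332). The call of both genes was lost when Tg-labelled pool 3 or 4, or C57BL/6J pool 1, 3 or 4, was left out: adjusted p was then 0.0633 to 0.1 for Mcm2 and 0.0633 to 0.106 for Mcm6, with log2 fold changes that stayed between 0.95 and 1.11 and between 1.06 and 1.35. The other 2 MCM subunits among the 30 had groups that did not overlap and missed the threshold.
Mcm5 was at 5.65, 5.22, 5.35 and 5.63 CPM in Tg-labelled livers, against 1.84, 2.84, 3.25 and 3.22 CPM in C57BL/6J livers (0.97 ± 0.20, edgeR adjusted p = 0.0544), and Mcm3 differed by 0.65 ± 0.15 (adjusted p = 0.0655). The remaining replication genes overlapped between the groups, with differences of 0.26 for Tyms, which makes thymidylate, 0.15 for Rrm2, a subunit of ribonucleotide reductase, and -0.10 for Pcna. Summed over the 7 genes, the level was 54.2, 56.7, 68.1 and 61.5 CPM in Tg-labelled livers and 36.7 to 46.2 CPM in their controls, so that each Tg-labelled pool was 1.3 to 1.63 times the control mean.

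Genes of mitotic entry were higher mainly in 2 of the pools. Foxm1, the transcription factor of G2 and M genes, was at 1.06, 0.795, 3.55 and 3.42 CPM in Tg-labelled livers, against 0.356, 0.759, 0.491 and 0.379 CPM in C57BL/6J livers, and pool 2 stood only just above the highest control. Plk1, the Polo-like kinase of mitosis, had 15, 22, 93 and 74 reads in Tg-labelled livers (0.839, 1.09, 4.08 and 3.72 CPM), against 6, 8, 1 and 5 reads in C57BL/6J livers (0.356, 0.320, 0.0614 and 0.316 CPM). The groups did not overlap, and the log2 fold change of 3.17 ± 0.66, the highest of the 27, had an edgeR adjusted p of 0.0544. Cdk1, the mitotic kinase itself, overlapped, since Tg-labelled pool 1 lay under the highest control: it was at 0.895, 1.14, 4.34 and 3.12 CPM in Tg-labelled livers and 0.416, 0.959, 0.430 and 0.316 CPM in C57BL/6J livers. Its partner Ccna2 (cyclin A2) was at 0.895, 1.54, 4.25 and 4.02 CPM, against 0.831, 1.12, 0.614 and 0.442 CPM. Ccnb2 and Aurka also overlapped. As a group, the 6 tested genes had a median log2 fold change of 2.00, and the sum over all 8 was 1.46, 1.7, 5.49 and 4.61 times the control mean in Tg-labelled pools 1 to 4. Ccnb1 and Cdc25c, the phosphatase that activates CDK1, had too few reads to pass the filter on low counts. In 1 fit of all 6 groups, whose filter kept both, Ccnb1 was called higher (edgeR adjusted p = 0.0308), with no filter it was not (0.127), and Cdc25c was called in neither. Ccnb1 had 2, 6, 15 and 8 reads in Tg-labelled pools, against 0, 2, 0 and 1 in the controls. Cdc25c had 1, 0, 19 and 15 reads, against 2, 0, 1 and 0, so that its reads came almost wholly from pools 3 and 4.

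The checkpoint, anaphase and cytokinesis genes followed the same order of pools. Bub1b, which encodes the checkpoint kinase BUBR1, was at 1.18, 1.19, 3.42 and 2.11 CPM in Tg-labelled livers (21 to 78 reads), against 0.594, 0.519, 0.245 and 0.316 CPM in C57BL/6J livers (4 to 13 reads). All 4 Tg-labelled pools stood above all controls, and with a log2 fold change of 2.21 ± 0.46 it came next after Mcm2 and Mcm6 in p (edgeR adjusted p = 0.0539). Its adjusted p was 0.033 without Tg-labelled pool 1 and 0.0388 without pool 2. Kif20a, a kinesin of the central spindle, was at 1.40, 1.44, 7.19 and 8.44 CPM in Tg-labelled livers and at 0.713, 1.08, 0.614 and 0.379 CPM in C57BL/6J livers, without overlap (2.70 ± 0.67, adjusted p = 0.0773). Cdc20 was at 1.01, 0.944, 5.35 and 3.97 CPM, against 0.356, 0.919, 0.736 and 0.695 CPM, with 2 Tg-labelled pools close to the highest control. Birc5 (survivin, of the chromosomal passenger complex) was more even, at 1.68, 1.74, 2.45 and 2.86 CPM in Tg-labelled livers against 1.07, 0.999, 0.798 and 1.01 CPM in C57BL/6J livers (1.17 ± 0.26, adjusted p = 0.0653). Aurkb, the kinase of the same complex, overlapped between the groups. Bub1, a further checkpoint kinase, was too low to pass the filter, with 4, 7, 17 and 14 reads in Tg-labelled pools and 0, 5, 0 and 1 in controls. Summed over the 6 genes, Tg-labelled pools 1 to 4 were at 1.89, 1.99, 6.34 and 5.93 times the control mean.

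Among the genes of chromosome and spindle structure, Top2a (topoisomerase II alpha, which untangles sister chromatids) was at 2.91, 4.08, 10.6 and 11.3 CPM in Tg-labelled livers, against 2.08, 2.20, 1.53 and 2.59 CPM in C57BL/6J livers, without overlap (1.79 ± 0.45, edgeR adjusted p = 0.0775). Cenpf, a kinetochore protein, was at 1.23, 1.34, 7.41 and 8.85 CPM, against 0.891, 0.999, 0.798 and 1.14 CPM. Mki67 overlapped: it was at 5.93, 7.65, 19.0 and 14.4 CPM in Tg-labelled livers and 3.44, 8.19, 2.70 and 3.22 CPM in C57BL/6J livers, where pool 2 stood above both lower Tg-labelled pools. The spindle motor Kif11 did not overlap (1.68 ± 0.50, adjusted p = 0.115). Tpx2, which activates Aurora A on the spindle, and Nusap1, a microtubule-binding protein, overlapped. All 6 estimates were above 0, with a median of 1.62, and the sum over the 6 was 1.28, 1.62, 4.82 and 4.22 times the control mean.

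The G1 cyclins showed no such order. Ccnd1 was at 69.8, 24.9, 45.1 and 61.6 CPM in Tg-labelled livers and at 36.8, 109, 17.9 and 30.0 CPM in C57BL/6J livers, with a log2 fold change of 0.06 ± 0.53. The highest value of all was in a control pool, and the sign of the estimate held in 8 of 14 alternative settings. Ccne1 and Ccne2, the E cyclins, differed by 0.31 and -0.19, and the groups overlapped in both.

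**Figure D3:**
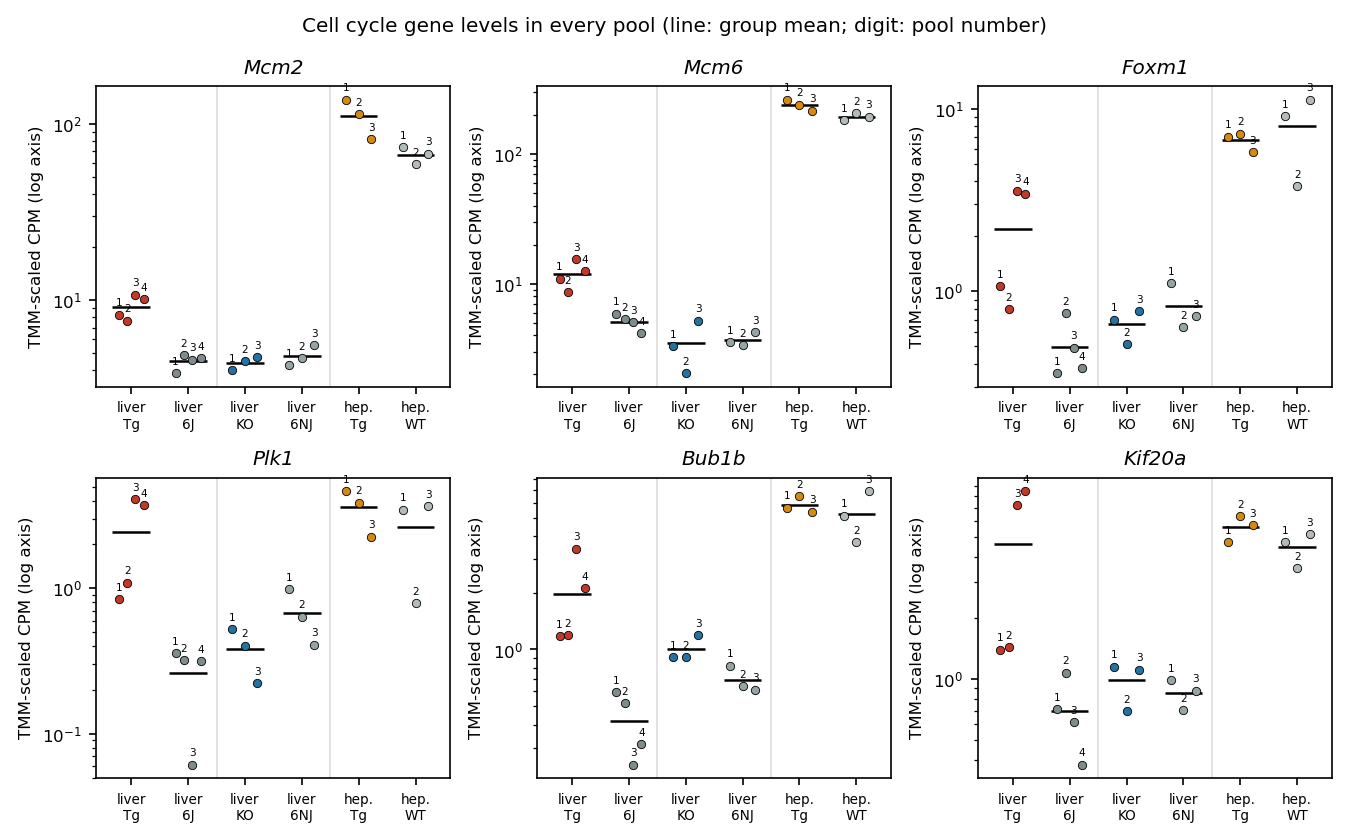
TMM-scaled CPM (log axis) of cell cycle genes in every pool, with the pool number printed at each point and a line at the group mean; Tg-labelled and KO groups stand left of their controls. In Tg-labelled livers Mcm2 and Mcm6 lie above all controls in all 4 pools, and the late genes are highest in pools 3 and 4 (Plk1 at 4.08 and 3.72 CPM, against 0.839 and 1.09 in pools 1 and 2).

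Leaving out pools 3 and 4, a choice made after their values were seen, lowered the median of the 27 estimates to 0.60. Of the 27, 23 were above 0 and none passed the threshold in edgeR. An unadjusted p below 0.05 was found for 8, against 1375 of all 14543 genes, and DESeq2 was not run on this subset. Mcm2 and Mcm6 then differed by 0.81 and 0.92 (edgeR adjusted p = 0.212 each), Plk1 by 1.82, Top2a by 0.72, and Cenpf and Tpx2 by 0.41 and 0.15. The share of counts from mitochondrial genes was 5.52%, 8.21%, 7.64% and 7.35% in Tg-labelled pools 1 to 4, against 5.59% to 6.14% in C57BL/6J livers, so that pools 2, 3 and 4 stood above every control. Levels of other marker lists differed as well. The summed level of 6 cholangiocyte markers was 74.4, 51.8, 114 and 117 CPM in Tg-labelled livers, against 41.7 to 50.4 CPM in C57BL/6J livers. The 12 Kupffer cell and macrophage markers summed to 497 to 787 CPM, against 337 to 638 CPM. Of their 12 estimates 11 were above 0, and none was called in edgeR (9 unadjusted, 4 higher and 1 lower in DESeq2). The 8 hepatocyte markers summed to 79850, 73550, 63290 and 63140 CPM in Tg-labelled livers, against 101400 to 119200 CPM. B and plasma cell markers ranged from 52.3 to 232 CPM, against 25.6 to 92.0 CPM. Cd4 of the T and NK cell list (1.99) and Pdgfrb of the stellate cell list (0.86) were called higher. Of the 3 T and NK cell markers tested, Cd4 alone had an estimate above 0 (median -0.15). Of the 8 stellate cell markers, 6 had an estimate above 0 (median 0.40). The 8 neutrophil markers summed to 4.32 to 18.5 CPM in Tg-labelled livers, against 2.02 to 3.48 CPM, and the 2 that could be tested did not overlap (median 1.65; none called in edgeR, 2 unadjusted, 2 in DESeq2). The part of these cells and of the mitochondrial share in the cell cycle result was not tested.

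Wider lists of cell cycle genes, which share no gene with the 30, gave the same picture in part. Of 34 tested genes of G2 and M phase, 32 had an estimate above 0, with a median of 1.04 and none past the threshold in edgeR (18 at an unadjusted p below 0.05, 9 higher in DESeq2). Of 27 genes of S phase and E2F targets, 19 were above 0, with a median of 0.29 and none called (9 unadjusted, 3 higher in DESeq2). Of 22 genes that drive G1, none was called (6 unadjusted, 1 lower in DESeq2). Of 25 genes of cell cycle brakes and quiescence, 1 was called higher in edgeR, against 0.971% of all genes. An unadjusted p below 0.05 was found for 7 of the 25, and DESeq2 called 5 higher and 1 lower. The gene called in edgeR was Cdkn1a, which encodes p21, an inhibitor of cyclin-dependent kinases. Cdkn1a was at 8.39, 15.2, 41.0 and 31.5 CPM in Tg-labelled livers and at 1.96, 3.84, 3.56 and 2.28 CPM in C57BL/6J livers. All Tg-labelled pools stood above all controls, with pools 3 and 4 highest as for the late genes (log2 fold change 3.04 ± 0.49, edgeR adjusted p = 0.032, and 0.126 without pools 3 and 4). Its call was also lost without pool 3, pool 4, or C57BL/6J pool 1, 3 or 4 (adjusted p = 0.0533 to 0.105).

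The second comparison asks what differed where A1cf was deleted. In KO livers no cell cycle gene of the 27 tested passed the threshold, against 2.98% of all genes called in either direction. An unadjusted p below 0.05 was found for 2, against 2941 of all 15942 genes. The estimates were spread around 0: 12 of 27 were above 0 (44.4%, against 48.9% of all genes), with a median of -0.09. Groups did not overlap for 4 genes that were higher in KO livers (Pcna, Ccna2, Cdk1 and Bub1b; 14.8%, against 13.3% of all genes) and for 2 that were lower (Aurka and Cdc20; 7.41%, against 11% of all genes). The smallest p belonged to Rrm2, at 5.80, 5.19 and 9.94 CPM in KO livers and 9.57, 14.1 and 14.7 CPM in C57BL/6NJ livers. KO pool 3 stood just above the lowest control, and the log2 fold change was -0.91 ± 0.25 (edgeR adjusted p = 0.0899). Without KO pool 3 it was -1.25 (adjusted p = 0.0333), and DESeq2 called it (adjusted p = 0.00656). Top2a was at 1.92, 1.10 and 2.52 CPM in KO livers, against 1.15, 0.670 and 0.906 CPM (1.01 ± 0.37, adjusted p = 0.18), and Tpx2 at 0.734, 0.439 and 0.890 CPM, against 0.329, 0.510 and 0.234 CPM (0.91 ± 0.46, adjusted p = 0.325); both overlapped. The 4 MCM genes overlapped between the groups, with estimates of -0.16 for Mcm2, -0.11 for Mcm3 and Mcm6 and 0.32 for Mcm5. Mcm2 was at 4.02, 4.50 and 4.75 CPM in KO livers and 4.27, 4.69 and 5.58 CPM in C57BL/6NJ livers. The KO pools lay further apart for Mcm5, at 3.42, 1.90 and 3.93 CPM in KO livers, against 2.71, 2.23 and 2.37 CPM, and for Mcm6, at 3.32, 2.05 and 5.19 CPM, against 3.53, 3.38 and 4.24 CPM. Of 34 tested G2 and M genes of the wider lists, 1 was called in edgeR (4 unadjusted, 1 lower in DESeq2). Of 26 brakes, 2 were called in edgeR (9 unadjusted, 3 higher and 1 lower in DESeq2). Over all genes 2.98% were called. Ccnf, a cyclin-like F-box protein of G2, fell to 15.3, 18.6 and 11.9 CPM in KO livers, against 25.9, 24.8 and 29.9 CPM in controls (-0.84 ± 0.16, edgeR adjusted p = 0.025). The stress-induced growth inhibitors Gadd45a and Gadd45b, of the brakes, rose by 0.94 and 1.09 (adjusted p = 0.0396 and 0.0398). These 3 calls were each lost without KO pool 1 or 3, or C57BL/6NJ pool 2 or 3 (adjusted p = 0.0573 to 0.171). The call of Gadd45a was also lost without KO pool 2 (adjusted p = 0.101), and that of Gadd45b without any one of the 6 pools (0.0638 to 0.171). In 1 fit of all 6 RNA groups, Ccnf and Gadd45b were not called (adjusted p = 0.677 and 0.593). None of 29 S phase genes (6 unadjusted, 2 in DESeq2) or 23 G1 drivers (3 unadjusted, 2 in DESeq2) passed in edgeR. All 10 tested muscle markers were called higher in these same pools, and Igkc, Klf1 and Cps1, of the B cell, erythroid and hepatocyte lists, lower. Estimates were above 0 in 1 of 8 tested B and plasma cell markers (median -1.32). They were above 0 in 4 of 6 erythroid (median 0.17) and 4 of 8 hepatocyte markers (median 0.02). Of the 8 stellate cell markers none was called in edgeR (8 unadjusted, 2 higher and 1 lower in DESeq2). Among these 8 markers, 7 had estimates above 0 and 6 were higher without overlap. The 8 markers summed to 456 to 518 CPM in KO livers, against 360 to 398 CPM in C57BL/6NJ livers. The part of these cells in the result was not tested.

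The difference between the Tg-labelled and the KO effect in liver was tested as a contrast of the 4 groups, each effect taken within its own study. It was above 0 for 26 of 27 cell cycle genes (50.9% of all genes), with a median of 1.04. Mcm2 passed the threshold (1.18 ± 0.23, edgeR adjusted p = 0.032), against 0.614% of all genes called in that direction, and Plk1 came next (3.98 ± 0.89, adjusted p = 0.051). The call of Mcm2 was lost when any one of 10 of the 14 pools was left out, with adjusted p then at 0.0507 to 0.115.

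**Figure D4:**
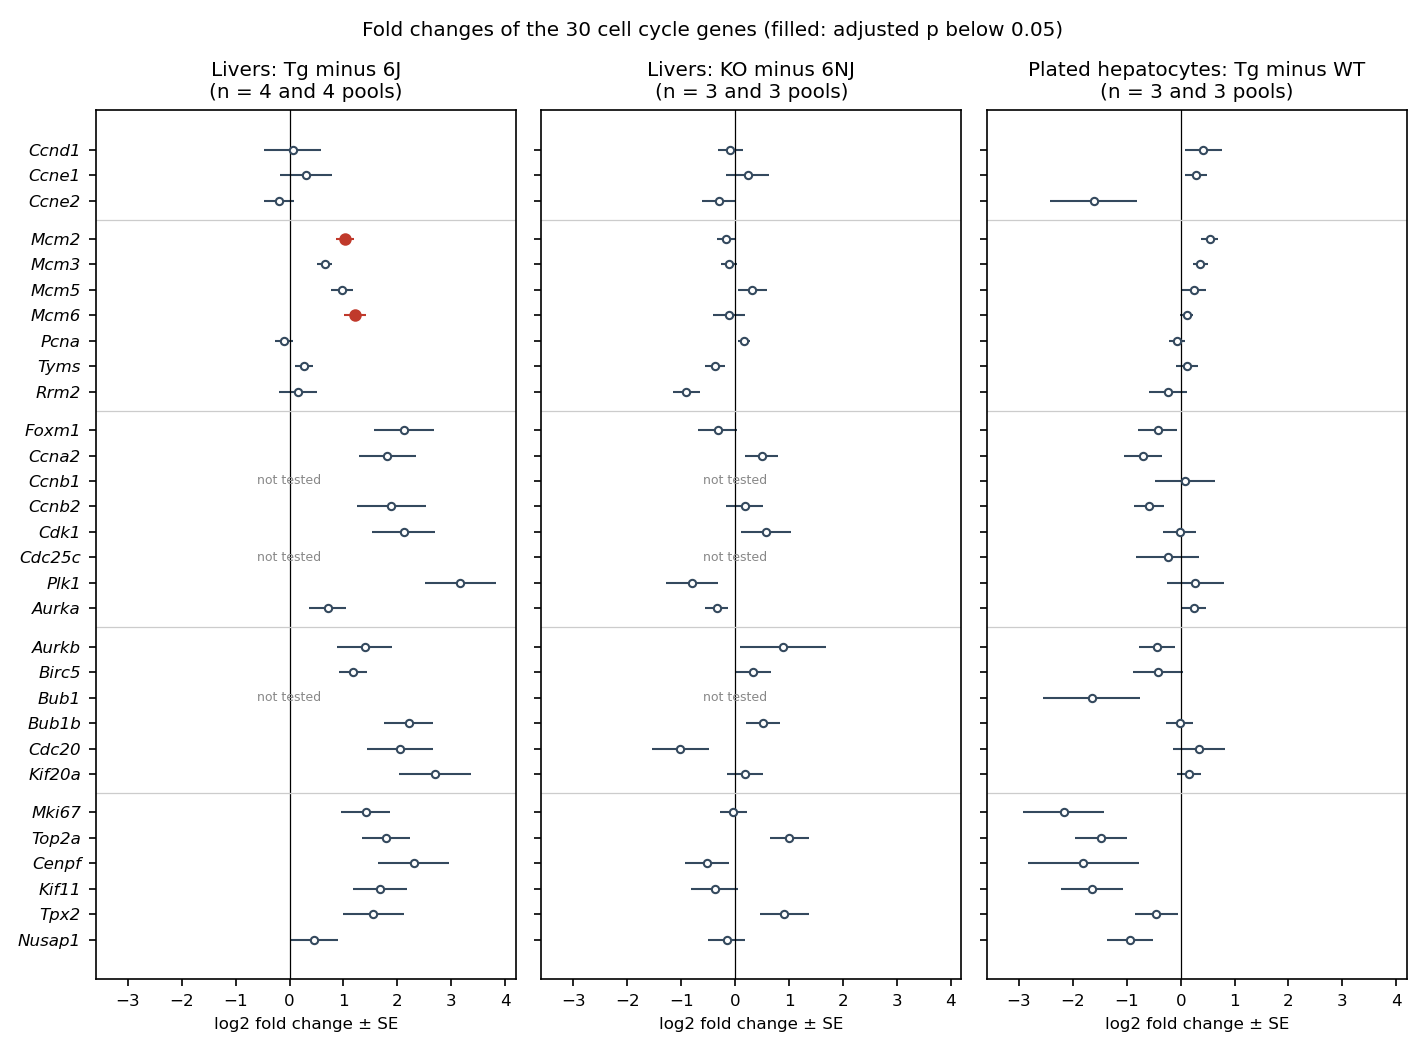
Log2 fold changes ± SE of the cell cycle genes by role in the comparisons of Tg-labelled or KO pools with their wild-type controls; filled points passed an adjusted p of 0.05. Estimates in Tg-labelled livers lie mostly right of 0 (median 1.40), those in KO livers around 0 (median -0.09), and in Tg-labelled hepatocytes the 6 chromosome and spindle genes lie left of 0 (median -1.56).

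The third comparison sets plated hepatocytes labelled Tg against wild-type hepatocytes. All 30 genes were tested and none passed the threshold, against 3.15% of all genes. An unadjusted p below 0.05 was found for 5, against 3973 of all 13770 genes. DESeq2 called 4, against 2017 of all 13770 genes. Estimates above 0 numbered 12 (40%, against 48.9% of all genes), with a median of -0.15. Mcm2, Mcm3 and Mcm6 were higher without overlap (10%, against 20.1% of all genes), and Ccnb2 was lower without overlap (3.33%, against 11.9%). Estimates were above 0 in 2 of 3 G1 cyclins, 5 of 7 replication genes, 3 of 8 genes of mitotic entry, 2 of 6 checkpoint genes and 0 of 6 chromosome and spindle genes; the difference between roles was not tested. Mcm2 was at 137, 113 and 81.6 CPM in Tg-labelled hepatocytes and 73.4, 58.9 and 67.7 CPM in wild-type hepatocytes (0.54 ± 0.16, edgeR adjusted p = 0.106). On the scale common to the 20 libraries, the median of all genes was itself 0.24, 0.23 and 0.05 above the wild-type mean in Tg-labelled pools 1 to 3 (log2), which is removed in the fitted values. Mcm6 was at 261, 239 and 215 CPM in Tg-labelled and 182, 206 and 194 CPM in wild-type hepatocytes, with a fitted difference of only 0.11 ± 0.12. All 6 chromosome and spindle genes had estimates below 0, with a median of -1.56. Top2a was at 2.78, 3.58 and 5.35 CPM in Tg-labelled hepatocytes, against 7.67, 5.23 and 16.4 CPM (-1.47 ± 0.48, edgeR adjusted p = 0.12), and Tg-labelled pool 3 stood just above the lowest control. Mki67 was at 1.21, 1.25 and 4.87 CPM, against 4.70, 8.09 and 17.4 CPM (-2.17 ± 0.75, adjusted p = 0.129). Kif11 was at 0.633, 0.581 and 1.44 CPM, against 2.12, 1.31 and 4.13 CPM (-1.65 ± 0.57, adjusted p = 0.13). In each of these genes wild-type pool 3 was highest and Tg-labelled pool 3 was the highest of its group.

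Calls in hepatocytes rested on single pools. Without Tg-labelled pool 3, 8 of the 30 genes passed, against 4934 of all 14103 genes tested. Mcm2 and Mcm3 were higher, and Bub1, Ccne2, Cenpf, Kif11, Mki67 and Top2a lower. Leaving out the 3 pools of low mitochondrial share (Tg-labelled 1 and 2 and wild-type 1) was a choice made after their values were seen. It left 1 Tg-labelled pool, so only sizes of effects are given. The median of the 30 estimates was then -0.23, that of all genes -0.02, and Mki67 differed by -1.45. Gene length moved with the ratios over all genes: Spearman's correlation of length with the ratio to the wild-type mean was -0.31, -0.25 and -0.14 in Tg-labelled pools 1 to 3, while wild-type pools 1 to 3 gave -0.21, 0.18 and 0.04. The 4 cell cycle genes over 6000 bases (Tyms, Mki67, Top2a and Cenpf) had a median of -1.64. The 17 of over 3000 to 6000 bases had a median of -0.02, and the 9 of 3000 bases or less a median of -0.07. Mki67, Top2a and Cenpf are also among the chromosome and spindle genes. The 12 Kupffer cell and macrophage markers summed to 310 to 665 CPM in Tg-labelled hepatocytes, against 170 to 269 CPM in wild-type hepatocytes, with 12 estimates above 0 and none called in edgeR (6 unadjusted, 3 in DESeq2). The 8 B and plasma cell markers summed to 10.5 to 14.5 CPM, against 1.85 to 2.38 CPM, and Ighm, the heavy chain of IgM, was the only marker called (3.01, edgeR adjusted p = 0.00582). The 6 cholangiocyte markers summed to 456 to 600.5 CPM, against 632 to 1033 CPM, with 3 of 5 estimates above 0. The part of length and of these cells in the cell cycle values was not tested. In the wider lists none of 46 G2 and M genes passed in edgeR (13 unadjusted, 1 higher and 7 lower in DESeq2). Of the 46 estimates 10 were above 0, with a median of -0.44. None of 30 S phase genes (2 unadjusted, 1 in DESeq2) or 23 G1 drivers (5 unadjusted, 3 in DESeq2) passed. Of 25 brakes, 3 fell, against 1.62% of all genes called lower (8 unadjusted, 5 in DESeq2, all lower): Rb1 (-1.70, edgeR adjusted p = 0.029), which encodes the retinoblastoma protein that holds E2F in check, Tob1 (-0.78, adjusted p = 0.0387), an antiproliferative protein, and Ccng1, cyclin G1 (-0.87, adjusted p = 0.0468). Each call was lost when any single pool other than Tg-labelled pool 3 was left out, with adjusted p at 0.0528 or above.

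The Tg-labelled effect in liver minus that in hepatocytes was above 0 for 25 of 29 genes (45.4% of all genes), with a median of 1.66. None passed the threshold in edgeR, against 0.842% of all genes in either direction. An unadjusted p below 0.05 was found for 17, against 3551 of all 15565 genes. DESeq2 called 11, against 1015 of all 15565 genes. The smallest p belonged to Top2a (3.11 ± 0.68, edgeR adjusted p = 0.0529), followed by Kif11 (3.18 ± 0.79, adjusted p = 0.0693) and Mki67 (3.45 ± 0.86, adjusted p = 0.0696). Without Tg-labelled hepatocyte pool 3, 8 of the 30 genes were called, against 3545 of all 15850 genes tested.

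The largest differences lay between plated cells and tissue. Wild-type hepatocytes were set against C57BL/6J livers, 2 groups that also appear as controls above. Of 28 cell cycle genes tested, 23 were higher and 1 lower, against 35.6% of all genes higher and 36.4% lower, and 22 were higher without overlap (37% of all genes). The median log2 fold change was 2.35, and that of all genes -0.04. Plating, age (12 weeks against 12 months) and sequencing study differ together here and cannot be told apart.

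All 7 replication genes rose. Mcm6 was at 182, 206 and 194 CPM in wild-type hepatocytes, against 4.17 to 5.88 CPM in C57BL/6J livers (5.17 ± 0.16, edgeR adjusted p = 3.78e-08). Mcm2 followed with 73.4, 58.9 and 67.7 CPM, against 3.86 to 4.87 CPM (3.81 ± 0.15), Mcm3 with 84.7, 70.5 and 87.4 CPM, against 5.11 to 7.18 CPM (3.70 ± 0.16), and Mcm5 with a difference of 4.36 ± 0.24. Pcna, Rrm2 and Tyms rose less, by 1.68, 1.13 and 0.80. Rrm2 alone of the 7 overlapped, at 14.5, 9.19 and 27.0 CPM against 4.08 to 11.3 CPM, and its call was lost without wild-type hepatocyte pool 3 or C57BL/6J pool 1 or 2.

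Mitotic genes were mostly higher as well. Foxm1 was at 9.10, 3.76 and 11.2 CPM in wild-type hepatocytes, against 0.356 to 0.759 CPM in livers (3.89 ± 0.43), and Cdk1 at 7.29, 4.12 and 9.85 CPM, against 0.316 to 0.959 CPM (3.60 ± 0.43). Bub1b differed by 3.53, Bub1 by 3.52, Plk1 by 3.20, Aurkb by 2.88, Tpx2 by 2.87, Ccna2 by 2.66, Kif20a by 2.57 and Top2a by 2.14. Ccnb2, Birc5, Cdc20, Aurka and Kif11 rose by 1.52 to 1.78 (edgeR adjusted p at most 0.013 in each of these genes), and the call of Kif11 was lost without wild-type hepatocyte pool 3. Mki67, Nusap1 and Cenpf did not pass the test, at 1.11, 0.41 and 0.42. Wild-type hepatocyte pool 2 was the lowest of its group for Foxm1, Cdk1 and Plk1, and pool 3 the highest.

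The G1 cyclins parted. Ccne1 rose to 20.4, 14.9 and 24.3 CPM in wild-type hepatocytes, against 3.33, 0.919, 1.29 and 3.73 CPM in C57BL/6J livers (3.05 ± 0.44, edgeR adjusted p = 0.000172). Ccnd1 was the only cell cycle gene of the 28 tested that fell, to 14.7, 5.61 and 12.4 CPM, against 36.8, 109, 17.9 and 30.0 CPM (-2.23 ± 0.60, edgeR adjusted p = 0.00795), without overlap. Ccne2 did not pass (0.92). The wider lists moved alike: 24 of 30 S phase genes were higher and 3 lower, and 36 of 46 G2 and M genes were higher and 1 lower, with the smallest p in Chaf1a (3.42), Mcm4 (2.85), Uhrf1 (5.10) and Mcm7 (2.12) of S phase and in Ckap2 (4.84), Ncaph (3.78), Prc1 (3.44) and Cdca5 (3.80) of mitosis. Brakes changed in both directions, 13 higher and 7 lower of 25. Cdkn1a rose to 255, 228 and 249 CPM in wild-type hepatocytes (6.31 ± 0.25, edgeR adjusted p = 9.75e-08), and Rbl2, the p130 protein of resting cells, fell to 13.0 ± 1.83 CPM in wild-type hepatocytes, against 56.9 ± 3.91 CPM in livers (SD, n = 3 and 4), with E2f4 at 2.49 and Cdkn2b at 3.36. Of the G1 drivers, 15 of 23 were higher and 4 lower, with Hgf, a growth factor made by nonparenchymal cells, at -7.17, Ccnd2, cyclin D2, at -2.59, E2f3 at 1.89 and Dbf4, which activates the replication kinase CDC7, at 3.22. Most cell type markers were lower in the plated cells, those of hepatocytes included: all 8 hepatocyte markers (Cps1 at -5.45, Hnf4a at -2.22 and Alb at -1.52), all 8 liver endothelial markers and 10 of 12 Kupffer cell and macrophage markers were called lower, and 1 T cell marker, Cd3e, was at 0. The macrophage marker Cd68 (3.67) and the cholangiocyte markers Spp1 (4.49) and Sox9 (4.01) were called higher. The cholangiocyte markers Epcam (-4.45) and Krt7 (-1.64) were called lower, and the median of the 5 tested was 0.09. The 6 cholangiocyte markers summed to 632 to 1033 CPM in wild-type hepatocytes, against 41.7 to 50.4 CPM in C57BL/6J livers. In wild-type hepatocytes this sum had a mean of 774 CPM, of which Spp1 gave 657 and Sox9 110 CPM. The part of these markers in the cell cycle result was not tested.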

How the data were processed

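The values are 20 RNA-seq libraries and 10 CLIP-seq libraries. Per the submitters' processing notes, the tools were bcl2fastq, STAR 2.0.4b and featureCounts 1.45 of Subread, with genome build GRCm38; annotation release, strand setting and reads that align more than once are not given in the sources used here. The deposited count per gene was the unit tested. The deposited CPM values equal counts over the library total (largest difference 4.9e-10) and served as an alternative scale. Levels are CPM scaled with TMM factors over the 20 RNA libraries, and per kilobase use the deposited gene length. Ratios of single pools add 0.1 CPM.

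Each comparison was fitted on its own libraries with edgeR 4.0.16 (R 4.3.3), after filterByExpr (minimum count 10, minimum total 15) and TMM. Quasi-likelihood F-tests were two-sided, with Benjamini-Hochberg adjustment over all genes tested and 0.05 as threshold. The fits were tested on simulated counts with known changes. In the hepatocyte fit 12.2% of 2-fold and 86.2% of 4-fold changes were recovered. The Tg-labelled liver fit recovered 51.5% and 96.9%, and the KO liver fit 64.9% and 90.7%. False calls numbered 6 in the hepatocyte fit, 11 in the Tg-labelled liver fit and 18 in the KO liver fit. Counts were drawn independently for each gene, so shifts shared by many genes of a pool were not simulated. Alternatives were other size factors, no filter, DESeq2 1.42.0, one fit of all 6 groups, a replicate block, the deposited scale and leaving out each pool. Replicate numbers were not used as pairs, since the titles do not say that equal numbers pair pools. Deviations of equal-numbered pools correlated between -0.627 and 0.766.

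The genes, roles, wider lists and marker lists were chosen with earlier results of these data known. By rule, full values are given for A1cf, for genes past the threshold and for the 3 of smallest p per comparison; of each role the gene highest per kilobase, and of each wider list up to 4 genes past the threshold, are named. Of the 24 genes called between hepatocytes and livers, some are given by fold change only. Other genes were named after their values were seen. Counting sets the precision of low genes: 3 reads, the limit that a count of 0 allows, equal 0.0806 to 0.176 CPM per library.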

Additional observations from a re-analysis of the deposited data

Results flagged for a closer look

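Plk1 stood low in C57BL/6J liver pool 3, at 0.0614 CPM (1 read), against 0.316, 0.32 and 0.356 CPM in the other 3 pools of that group. Mki67 stood high in C57BL/6J liver pool 2, at 8.19 CPM, against 2.7, 3.22 and 3.44 CPM in the others; this is also the pool with 2295 CPM of muscle markers and the highest Ccnd1. Each was a single pool far from the rest of its group for its size, and chance gives such a gap in about 1 in 20 groups, of which 60 groups of 4 pools were examined here. The Tg-labelled effect on Mcm2 in liver exceeded the KO effect by 1.18 on the log2 scale in the test of the difference itself (edgeR adjusted p = 0.032): all 4 Tg-labelled pools lay above their controls, while the KO and C57BL/6NJ pools overlapped.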

How the results depend on the processing

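Genes called in Tg-labelled livers (188) numbered 1242 with DESeq2, 991 in one fit of all 6 groups, 27 to 561 leaving out 1 pool and 18 without Tg-labelled pools 3 and 4; in KO livers (475) they numbered 1079 with no filter, 903 with DESeq2, 42 in one fit and 137 to 645 leaving out 1 pool; in hepatocytes (434, 211 higher and 223 lower) they numbered 669, 2017 and 4323 (2715 higher and 1608 lower, with the median of all genes at 0.13) in the same order and 0 to 4934 leaving out 1 pool. Cell cycle genes called in Tg-labelled livers (2) numbered 16 with DESeq2, 14 in one fit, 0 to 10 leaving out 1 pool and 0 without pools 3 and 4, when their median was 0.604 (1.08 to 1.60 leaving out 1 pool). In KO livers (0) they numbered 1 with no filter or DESeq2 and 0 to 1 leaving out 1 pool (median -0.0988 to 0.102). In hepatocytes (0) they numbered 4 with DESeq2 or in one fit and 0 to 8 leaving out 1 pool. For the Tg-labelled effect in liver minus hepatocytes (0) they numbered 1 with no filter, 11 with DESeq2 and 0 to 8 leaving out 1 pool. For Tg-labelled minus KO (1) they numbered 2, 7 and 0 to 4. DESeq2 called 1015 of all 15565 genes in the former contrast and 796 of all 16295 in the latter. The replicate block gave 21 genes called in hepatocytes and 44 in Tg-labelled livers. It gave 0 cell cycle genes in Tg-labelled livers, 1 (Rrm2) in KO livers and 0 for Tg-labelled minus KO. Deviations of equal-numbered pools correlated at 0.766, -0.627 and -0.0278 for hepatocyte pools 1 to 3, and between -0.134 and 0.0996 in livers. The summed level of the 30 genes in wild-type hepatocytes was 679.3 on the deposited CPM scale, against 583.9. The causes were not tested. Counts between hepatocytes and livers stayed within 1.5 times (9744 to 10823 genes leaving out 1 pool), and no named estimate past the threshold changed sign. Depth limits the late genes, which had 1 to 13 reads per C57BL/6J pool for Plk1 and Bub1b.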

Other observations

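CLIP-seq, which sequences the RNA crosslinked by ultraviolet light to a precipitated protein, was deposited for 10 libraries of hepatocytes labelled Tg with 80854 counts in all. The 30 cell cycle genes held 24 of these counts, against 58.5 at their share of the RNA in Tg-labelled hepatocytes. Mcm6 held 12 counts in 7 libraries (19.2 at its RNA share). Cenpf, the lowest of the 30 genes per kilobase in Tg-labelled hepatocyte RNA, held 5 counts in 5 libraries (0.0367 at its RNA share). The other 28 genes held 0 to 2 counts each. No control precipitate was analysed here, and the counts are given as values.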
